A study of Mus musculus with 8 samples.

Results

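The 10 genes described here encode the machinery that shows peptides from inside the cell on its surface, the MHC class I presentation pathway. They were taken by name from the 53715 genes of the deposited table: the class I heavy chains H2-K1, H2-D1, H2-Q4, H2-Q7 and H2-T23, the light chain B2m, the peptide transporter subunits Tap1 and Tap2, the loading factor Tapbp and the transcriptional coactivator Nlrc5. Their values came from 8 RNA-seq libraries of Sting-/- mouse macrophages, in which the endogenous gene for STING is knocked out. The cells stably carried either no STING transgene (no_transgene) or a transgene labelled mSTING, dCTT or zfCTT, with 2 libraries per label. All 4 groups, controls included, had been stimulated with CMA, a synthetic acridone compound that switches on mouse STING, at 500 µg/ml for 4 h, so no library shows unstimulated cells. The letters CTT stand for the C-terminal tail of the protein, and published work on these constructs describes mSTING as mouse STING, dCTT as STING without its tail and zfCTT as STING with the zebrafish tail; the labels give only the short names. The cells are a stably transduced macrophage culture, and the labels do not say whether a group is 1 clone, or whether its 2 libraries came from separate cultures. The p-values below therefore weigh a group difference only against how far libraries of the same group lie apart, pooled over the 4 groups. That spread may be technical variation.

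A class I molecule is a membrane heavy chain paired with B2m, and it leaves the endoplasmic reticulum only after a peptide has been fitted into its groove. Proteasomes cut the peptides in the cytosol, the Tap1 and Tap2 heterodimer pumps them into the endoplasmic reticulum, and tapasin, the product of Tapbp, holds the empty heavy chain next to the transporter. Class I genes are classical targets of interferon and NF-κB signalling, and Nlrc5 acts at their promoters as the main class I coactivator; STING is known for feeding both signalling routes in macrophages.

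The promoters of B2m and H2-T23 held NF-κB letters in the same window as the usual core of the interferon response motif. Those of H2-K1, H2-D1, H2-Q4 and H2-Q7 held them with a form of that motif added after these sequences had been read. The share of all promoters that hold both was not counted. These sequences are shown before the values. RefSeq promoter windows (250 bases before to 50 after the start site, GRCm38.p6) were available for 8 of the 10 genes, while Tap2 and Nlrc5 had no entry. The stretches below run 5′ to 3′ on the gene's strand. Capitals mark, in order, GGGANTNNC (the NF-κB letters), the reverse complement of GAANNGAAA (interferon response letters with the spacing reversed, a motif added after the sequences had been read; the usual core, GAAANNGAA, is in none of these 4 windows), TGACG (the half-site of CREB and ATF factors) and ATTGG (the reverse of the CCAAT box). The H2-Q4 stretch has no marked TGACG, since there these letters follow ATTGG and run past the end of the stretch.
H2-K1 (chr17:34000354-34000460, minus strand): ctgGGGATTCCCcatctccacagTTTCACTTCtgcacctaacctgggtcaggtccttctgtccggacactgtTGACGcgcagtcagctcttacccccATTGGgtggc
H2-Q4 (chr17:35379441-35379547, plus strand): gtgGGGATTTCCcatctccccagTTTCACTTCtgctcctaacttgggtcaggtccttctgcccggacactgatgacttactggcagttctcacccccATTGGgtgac
H2-Q7 (chr17:35439020-35439126, plus strand): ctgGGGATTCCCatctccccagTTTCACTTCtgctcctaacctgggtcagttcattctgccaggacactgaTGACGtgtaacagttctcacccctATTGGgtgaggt
H2-D1 (chr17:35262924-35262952, plus strand, the NF-κB and response letters only): GGGATTCCCcatctcctcagTTTCACTTC
Over 107 aligned bases, the H2-K1, H2-D1, H2-Q4 and H2-Q7 promoters were identical at 91 to 96 positions per pair, so these 4 windows are near copies of each other rather than 4 separate pieces of sequence evidence. The NF-κB letters began 110 bases before the RefSeq start site in H2-K1, 170 in H2-D1, 173 in H2-Q4 and 132 in H2-Q7, and the response letters followed 20 bases later in the first 3 and 19 bases later in H2-Q7. In the GENCODE annotation used for the other values, all 29 printed bases of H2-D1 and all 107 of H2-Q4 lie in exons of either strand. The H2-D1 stretch falls inside the annotated H2-D1 gene, so it is upstream only of the RefSeq start.

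The B2m and H2-T23 windows held NF-κB letters beside the usual response core, and neither held GAANNGAAA. TGACG is not in the H2-T23 window, and its ATTGG lies on the other strand. Here the capitals mark GAAANNGAA (the interferon-stimulated response element core, read on either strand) and the reverse strand of the NF-κB letters, and in B2m also TGACG and ATTGG.
B2m (chr2:122147542-122147641, plus strand): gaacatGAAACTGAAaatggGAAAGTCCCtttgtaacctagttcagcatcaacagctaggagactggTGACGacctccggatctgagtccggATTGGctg
H2-T23, NF-κB letters (chr17:36032856-36032877, minus strand): agagaaGATAGTCCCagttaaa
H2-T23, response element core (chr17:36032805-36032832, minus strand): ctactgctTTCTCTTTCataaagacaca
All 28 printed bases of the H2-T23 response element core likewise lie in a GENCODE exon, inside the annotated H2-T23 gene. In the Tap1 window only TGACG and ATTGG were found, and in the Tapbp window only ATTGG. The Tap1 window shares 275 of its bases with that of Psmb9, an immunoproteasome subunit transcribed in the other direction. Of all 32851 RefSeq promoter windows, 14% held GGGANTNNC on either strand, 8.56% GAAANNGAA, 7.516% GAANNGAAA, 20.81% TGACG and 37.41% ATTGG, so a single match is common. The letters TTCNNNGAA, read by STAT factors and present in 8.298% of windows, were in none of the 8. A match is a description of the sequence and no evidence of binding.

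**Figure D1:**
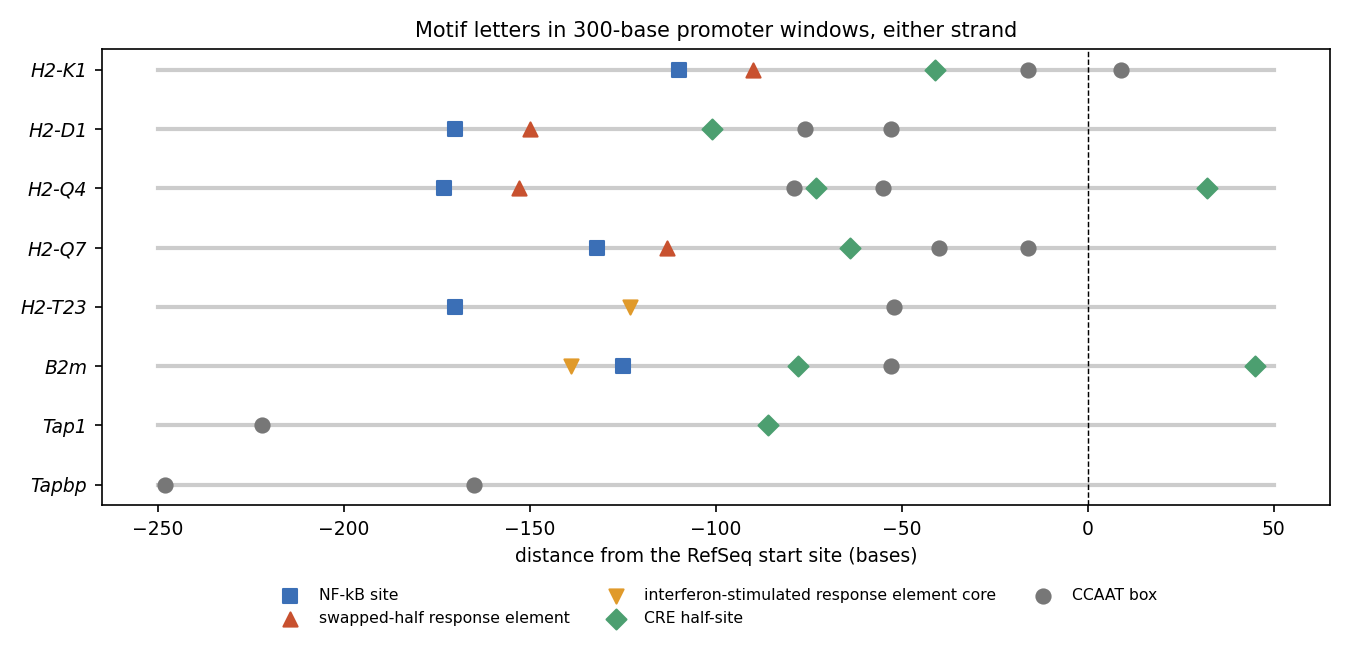
Positions of the searched motif letters in the RefSeq promoter windows of the 8 class I presentation genes with an entry; the horizontal axis is the distance from the start site in bases and each symbol is a motif. In H2-K1, H2-D1, H2-Q4 and H2-Q7 the NF-κB letters and the response letters sit side by side, while Tap1 and Tapbp hold neither.

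Tmem173, the gene that encodes STING, was read first as a check of the labels. It stood at 3.23 and 2.42 RPKM (reads divided by the length of the gene and the size of the library) in no_transgene, 10.6 and 22.2 in mSTING, 22.7 and 15 in dCTT and 14.2 and 20.6 in zfCTT, replicate 1 before replicate 2 here and below. Every library with a transgene was above both without one, and the 3 transgene groups overlapped. Of 10 macrophage markers, 8 were at or above 1 RPKM in both libraries of every group, with a summed level of 1165 to 1286 RPKM in no_transgene, 1059 to 1089 in dCTT, 830 to 989 in mSTING and 856 to 1047 in zfCTT. This sum was thus lower in mSTING and zfCTT than in no_transgene without overlap, but that separation rested on Lyz2. Lyz2 read 485.95 and 180.36 RPKM in no_transgene, 50.02 and 131.97 in mSTING and 100.84 and 145.56 in zfCTT. Csf1r, Itgam and Cd14 were also lower in both groups without overlap. So were Mertk and Mrc1, which were under 1 RPKM in every library. Adgre1 was lower without overlap in mSTING only. Spi1 was higher in both mSTING and zfCTT without overlap, as was Fcgr1 in zfCTT. The part of these markers in the class I differences was not tested. Summed markers of T cells, B cells, dendritic cells, neutrophils, fibroblasts, epithelium and endothelium each stayed at or below 1.84 RPKM in every library, and Cd3e, Cd8a and Ly6g were listed at 0 throughout. The T cell sum, 0.5 to 1.03 in no_transgene and 1.82 to 1.84 in zfCTT, came almost wholly from Lck. Depth recovered from the steps of the values was 20.1 to 171 M reads, with both zfCTT libraries (20.1 and 34.8) and no_transgene replicate 1 (27.7) the shallowest. Replicate 1 of no_transgene and of dCTT stood apart from replicate 2 in a shared direction: the replicate differences of these 2 groups correlated at 0.762 across 13475 genes. Those of zfCTT shared it less closely (0.433 with no_transgene and 0.399 with dCTT). Without replicate 1 of no_transgene and of dCTT, the median difference of the 10 class I genes on the log2 scale was 1.31 for zfCTT minus no_transgene, 0.63 for mSTING minus no_transgene, 0.03 for dCTT minus no_transgene, 0.72 for zfCTT minus mSTING, -0.71 for dCTT minus mSTING and 1.25 for zfCTT minus dCTT, while 0 of the 10 and 0 of all 13007 genes tested then passed in each. In bulk RNA, a change in the number of cells that express a gene and a change in RNA per cell cannot be told apart.

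Among the classical heavy chains, H2-K1 (ENSMUSG00000061232, GRCm38 chromosome 17, 33996017 to 34000347, minus strand), which presents peptides to CD8 T cells, read 67.3 and 87.6 RPKM in no_transgene, 79.2 and 89.5 in dCTT, 192 and 109 in mSTING and 244 and 164 in zfCTT. The no_transgene and dCTT libraries interleaved, both mSTING libraries were above all 4 of them, and mSTING and zfCTT overlapped. H2-D1 (ENSMUSG00000073411, chromosome 17, 35262730 to 35267499, plus strand), the other classical heavy chain, read 119 and 219 RPKM in no_transgene, 149 and 224 in dCTT, 324 and 253 in mSTING and 363 and 310.3 in zfCTT. Its groups followed the same order, with the smallest difference between zfCTT and no_transgene of the 5 heavy chains. H2-K1 and H2-D1 together made up 87.1% to 93.0% of the summed heavy-chain RPKM in each library, and H2-D1 was 1.49 to 2.50 times H2-K1 per unit length.

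The non-classical heavy chains were lower in level, and their mean RPKM in zfCTT was 2.91 to 4.77 times that in no_transgene, against 1.99 times for H2-D1 and 2.64 times for H2-K1. H2-Q4 (ENSMUSG00000035929, chromosome 17, 35379617 to 35385290, plus strand), a Qa-region heavy chain, read 4.57 and 6.60 RPKM in no_transgene, 6.34 and 9 in dCTT, 19.8 and 12.1 in mSTING and 32.8 and 20.5 in zfCTT. Both zfCTT libraries lay above both mSTING libraries, which lay above the rest. H2-Q7 (ENSMUSG00000060550, chromosome 17, 35439155 to 35443773, plus strand), which encodes a Qa-2 antigen, read 3.51 and 5.95 RPKM in no_transgene, 4.77 and 6.07 in dCTT, 13.4 and 6.12 in mSTING and 18.9 and 8.57 in zfCTT. Replicate 2 of mSTING lay just above replicate 2 of dCTT, so the separation of those groups was narrow.

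H2-T23 (ENSMUSG00000067212, chromosome 17, 36029773 to 36032855, minus strand), the Qa-1 heavy chain that is read by NKG2A receptors, read 5.87 and 11.3 RPKM in no_transgene, 8.16 and 12.2 in dCTT, 43.2 and 14.8 in mSTING and 35.4 and 29.7 in zfCTT. It was the single gene of the 10 whose highest library was mSTING replicate 1. H2-Q4 shares 19.1% of its exonic bases with Gm11131 on the other strand. Heavy-chain transcripts share sequence: 26.4% of 50-base windows of H2-Q7, 21.8% of H2-Q4, 13.6% of H2-T23, 12.8% of H2-D1 and 9.63% of H2-K1 also occur in another gene, so the authors' counting may have split or lost reads between them. These 5 values are uncertain to that extent.

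**Figure D2:**
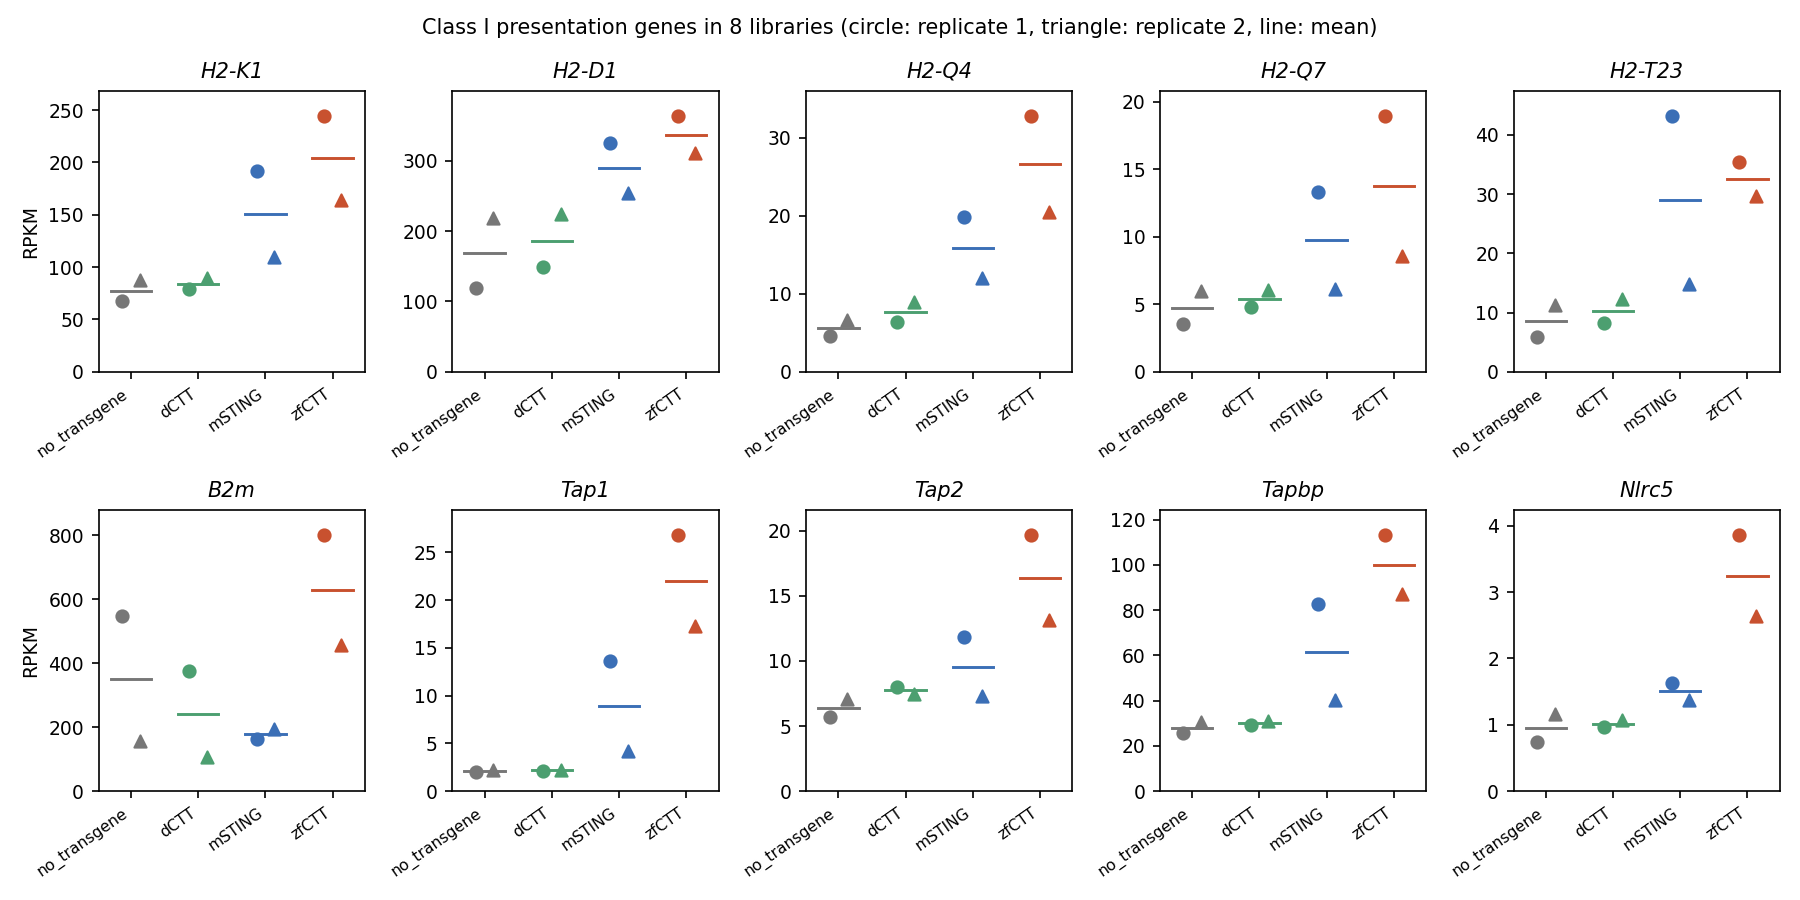
RPKM of the 10 class I presentation genes in each library, 1 panel per gene with its own axis from 0; circles are replicate 1, triangles replicate 2 and lines the group means. Apart from B2m, all panels climb from no_transgene and dCTT through mSTING to zfCTT, with mSTING replicate 1 above mSTING replicate 2.

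Tap1 (ENSMUSG00000037321, chromosome 17, 34187553 to 34197225, plus strand) had the widest range of the 10 genes in relative terms. It read 2 and 2.23 RPKM in no_transgene, 2.09 and 2.23 in dCTT, 13.6 and 4.24 in mSTING and 26.8 and 17.3 in zfCTT. The 4 libraries without a tailed STING were almost level, and the remaining groups were separate from them and from each other. Tap2 (ENSMUSG00000024339, chromosome 17, 34203527 to 34216321, plus strand), its partner subunit, read 5.70 and 7.06 RPKM in no_transgene, 7.97 and 7.5 in dCTT, 11.9 and 7.27 in mSTING and 19.7 and 13.2 in zfCTT. For Tap2, mSTING replicate 2 lay within the range of the groups without a tail.

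The Tap1 to Tap2 ratio of RPKM was 0.350 and 0.316 in no_transgene, 0.262 and 0.298 in dCTT, 1.14 and 0.584 in mSTING and 1.36 and 1.31 in zfCTT. Tap1 was thus at 0.262 to 0.350 of the level of Tap2 without a tailed STING and above it in zfCTT. Tap1 shares 3.87% of its exonic bases with Psmb9 on the other strand and Tap2 shares 18.5% with Gm20496 and Gm15821; the strand setting of the counting is not given in the sources used here, so reads in these bases cannot be assigned.

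Tapbp (ENSMUSG00000024308, chromosome 17, 33915899 to 33929292, plus strand) read 25.5 and 30.6 RPKM in no_transgene, 29.2 and 30.9 in dCTT, 82.9 and 40.2 in mSTING and 113 and 87.1 in zfCTT. Its groups stood in the same order as those of Tap1, with mSTING and zfCTT apart from each other. Zbtb22 and Gm19412 cover 29% of its exonic bases, and its reads, like those of H2-K1, did not come out whole from the exon length used here. Nlrc5 (ENSMUSG00000074151, chromosome 8, 94434356 to 94527272, plus strand), the coactivator, was the lowest of the 10 per unit length. It read 0.747 and 1.16 RPKM in no_transgene, 0.962 and 1.07 in dCTT, 1.63 and 1.38 in mSTING and 3.86 and 2.64 in zfCTT, from 176 to 1561 reads a library.

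B2m (ENSMUSG00000060802, chromosome 2, 122147686 to 122153083, plus strand), the light chain of every class I molecule, went against the pattern of the other 9. It read 547 and 156 RPKM in no_transgene, 375 and 108 in dCTT, 164 and 193 in mSTING and 799.6 and 457 in zfCTT. The 2 libraries of no_transgene differed 3.50-fold and those of dCTT 3.49-fold, so all neighbouring groups overlapped. The ratio of B2m to the summed 5 heavy chains ran from 0.276 in mSTING replicate 1 to 2.72 in no_transgene replicate 1, and the 2 libraries of no_transgene (2.72 and 0.472) and of dCTT (1.52 and 0.316) differed more from each other than the zfCTT libraries did (1.15 and 0.856).

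The reads behind these B2m values hardly moved with depth. They numbered 12414 to 17942 per library, a 1.45-fold range, while the library totals ranged 8.55-fold. Of the 13318 tested genes with reads in every library, none had a smaller range, the next smallest was 1.92-fold and the median was 9.12-fold; the other 9 genes ranged from 8.12-fold to 23.4-fold. B2m RPKM was accordingly lower in deeper libraries (Pearson r = -0.99 between log2 values over 8 libraries, given as a description), against -0.51 to -0.01 for the other 9. B2m also has a GC content of 41.2%, lower than all but 3.70% of tested genes, whereas the other 9 lie between 52.4% and 58.4%. Between the no_transgene libraries, the median difference of replicate 1 from replicate 2 on the log2 scale went from 0.30 among the 2692 tested genes of lowest GC to -0.36 among the 2692 of highest GC; for B2m it was 1.80. What part depth and GC have in the B2m values was not tested, and its group differences are given below only for completeness.

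**Figure D3:**
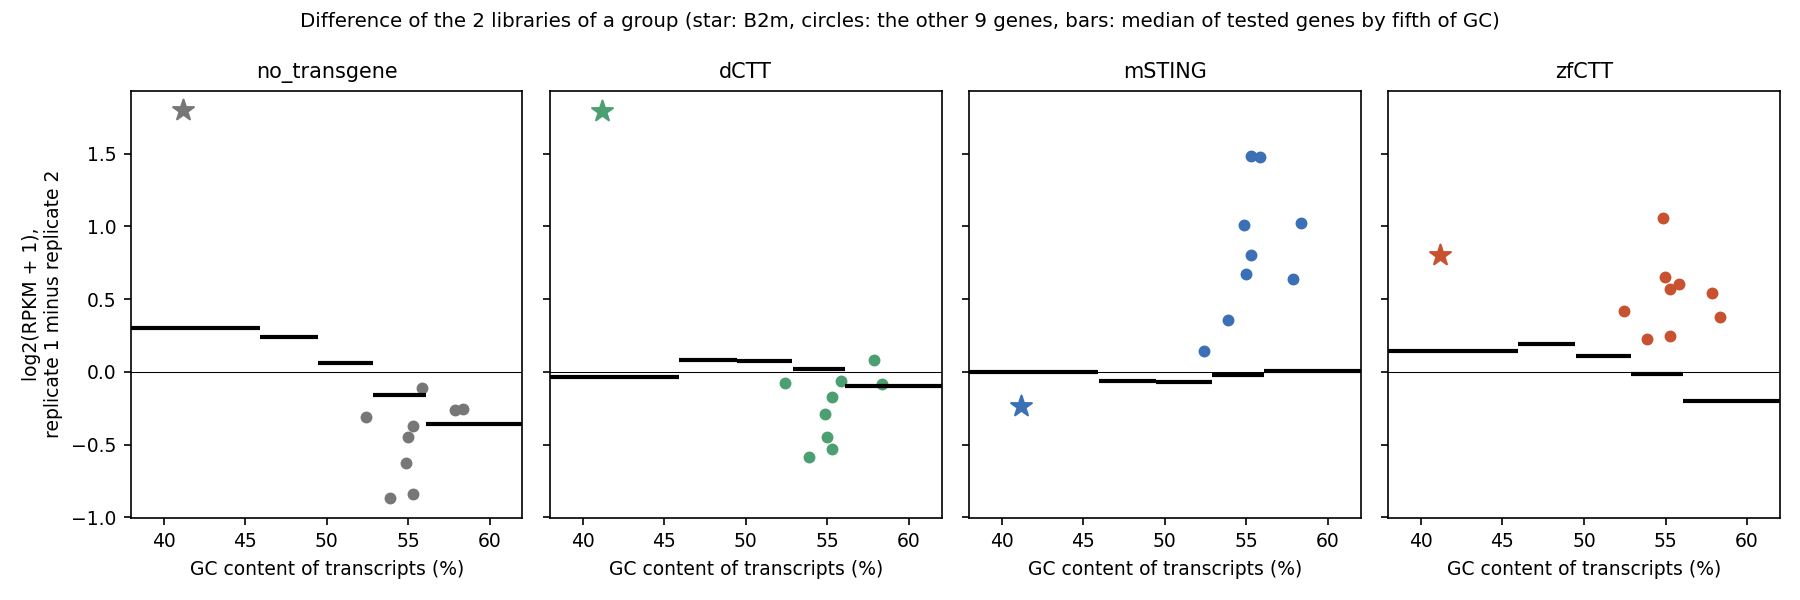
Difference between the 2 libraries of a group, log2(RPKM + 1) of replicate 1 minus replicate 2, against GC content of the transcripts; the star is B2m, circles are the other 9 genes and bars are medians of tested genes in 5 bins of GC. B2m stands at 1.80 in no_transgene and 1.79 in dCTT, far above the bars, and at -0.24 in mSTING.

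Group differences were tested with limma on log2(RPKM + 1) over all 13475 genes with at least 1 RPKM in at least 2 libraries, a filter that all 10 genes passed. With 2 libraries a group, none of the 10 genes passed an adjusted p of 0.05 in any of the 6 comparisons, so the differences below are sizes with their standard errors and not calls. The 3 comparisons with no_transgene share its libraries and are set side by side, not counted as separate support.

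By mean RPKM, every gene was higher in zfCTT than in no_transgene, from 1.79-fold for B2m to 10.4-fold for Tap1 (ratio of mean RPKM). For B2m the libraries of the 2 groups overlapped, and its RPKM was lower in deeper libraries. Its reads numbered 13033 and 13588 in no_transgene and 13789 and 13668 in zfCTT. What part depth has in its 1.79-fold was not tested. The difference on the log2(RPKM + 1) scale was 2.86 ± 0.46 (SE) for Tap1, with an adjusted p of 0.0506. H2-Q4 differed by 2.05 ± 0.34 (adjusted p = 0.0536), Nlrc5 by 1.11 ± 0.20 (0.0638) and Tapbp by 1.79 ± 0.34 (0.0723). For H2-T23 it was 1.86 ± 0.52, for H2-K1 1.37 ± 0.33, for H2-Q7 1.30 ± 0.47, for Tap2 1.22 ± 0.28, for H2-D1 1.05 ± 0.35 and for B2m 1.05 ± 0.75, with adjusted p from 0.116 to 0.601. The 95% interval included 0 only for B2m.

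By limma 0 of the 10 genes passed after adjustment, against 1.08% of all tested genes, and 0 passed in a fit of recovered reads (voom), against 0.357%. At an unadjusted p under 0.05, 9 of 10 were different, all higher, against 13.4% of tested genes in either direction. Both zfCTT libraries were above both no_transgene libraries for 9 of 10 genes, all but B2m, against 18.8% of tested genes. The median difference of the 10 was 1.34 and that of all tested genes -0.04; without replicate 2 of zfCTT the median was 1.74 and without replicate 1 it was 1.02.

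With mSTING, the same 9 genes had both libraries above both no_transgene libraries, at a smaller distance. H2-T23 differed by 1.52 ± 0.52, Tap1 by 1.49 ± 0.46, H2-Q4 by 1.34 ± 0.34 and Tapbp by 1.02 ± 0.34, while H2-K1, H2-Q7, H2-D1, Tap2 and Nlrc5 lay between 0.36 and 0.91 and B2m at -0.71 ± 0.75. The adjusted p were 0.840 to 0.843, so 0 of 10 passed by limma and 0 by voom (0% of tested genes in both), and 5 of 10 had an unadjusted p under 0.05 (3.47% of tested genes). Non-overlap in this direction occurred in 15.3% of tested genes. The 2 mSTING libraries lay far apart: the median of the 10 differences was 0.88 (all tested genes -0.04), 1.33 without replicate 2 and 0.51 without replicate 1.

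dCTT differed little from no_transgene. Of the differences, 9 were between 0.02 (Tap1) and 0.40 (H2-Q4), B2m was at -0.54, and the median of the 10 was 0.15 beside -0.01 for all tested genes. By limma 0 of 10 passed (adjusted p = 1 for each, 0% of tested genes called), 0 by voom (0%), and 0 had an unadjusted p under 0.05 (0.267% of tested genes). Tap2 was the 1 gene with both dCTT libraries above both no_transgene libraries, a separation seen in 7.75% of tested genes. These intervals do not show that the groups are alike: for Tap1 the 95% interval ran from -1.08 to 1.12 and for Nlrc5 from -0.44 to 0.54. The median was -0.04 without replicate 1 of no_transgene, 0.35 without its replicate 2, 0.21 without replicate 1 of dCTT and 0.04 without its replicate 2.

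**Figure D4:**
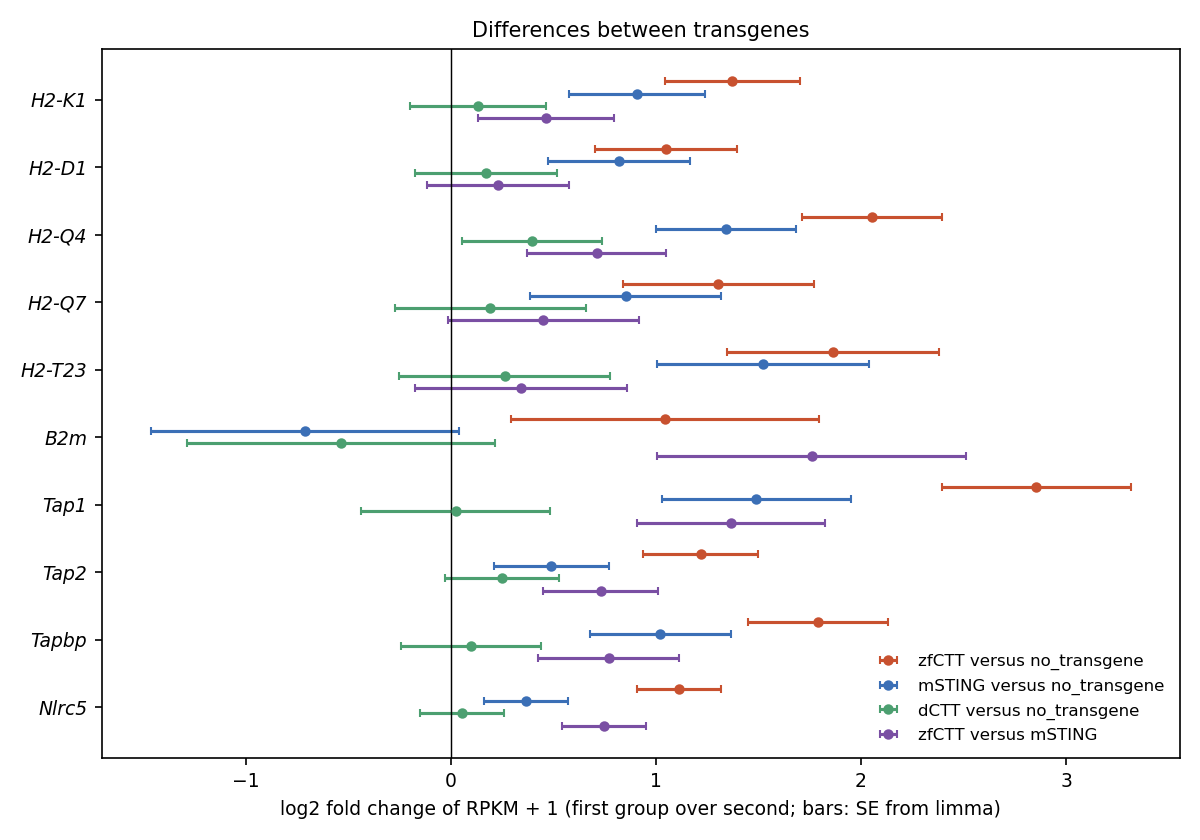
Difference between groups in log2(RPKM + 1) for the 10 genes in 4 of the comparisons, with bars for the standard error from limma. The zfCTT versus no_transgene points lie from 1.05 to 2.86, the mSTING points below them for every gene, and the dCTT points between -0.54 and 0.40.

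The zfCTT libraries were compared with the mSTING libraries for what the change of tail adds. Tap1 was higher by 1.37 ± 0.46 (adjusted p = 0.419), Tapbp by 0.77 ± 0.34, Nlrc5 by 0.75 ± 0.20 (0.370), Tap2 by 0.73 ± 0.28 and H2-Q4 by 0.71 ± 0.34; these 5 and B2m (1.76 ± 0.75) had both zfCTT libraries above both mSTING libraries. H2-K1, H2-Q7, H2-T23 and H2-D1 overlapped, with differences of 0.46, 0.45, 0.34 and 0.23. By limma 0 of 10 passed (0.119% of tested genes), 0 by voom (0.0594%), and 3 of 10 (Tap1, Tap2 and Nlrc5) had an unadjusted p under 0.05 (11% of tested genes). The 6 of 10 without overlap, which include B2m with its dependence on depth, stand beside 24.9% of tested genes. The median was 0.72 (all tested genes 0.01); without mSTING replicate 2 it was 0.32, without zfCTT replicate 1 it was 0.42.

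Against mSTING, the dCTT libraries were lower for 8 of 10 genes without overlap, all but Tap2 and B2m, where 12.8% of tested genes were lower without overlap. Tap1 differed by -1.47 ± 0.46, H2-T23 by -1.26 ± 0.52, H2-Q4 by -0.95 ± 0.34 and Tapbp by -0.92 ± 0.34, and these 4 had an unadjusted p under 0.05 (2.49% of tested genes). By limma 0 of 10 passed (0% of tested genes, adjusted p of 1 after rounding) and 0 by voom (0%). The median was -0.72 beside 0.03 for all tested genes. With mSTING replicate 1 left out it was -0.39, and with replicate 2 left out -1.17.

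Between the STING with the zfCTT tail and the one without a tail, all 10 genes had both zfCTT libraries above both dCTT libraries, a separation found in 20.1% of tested genes. B2m is 1 of the 10. Its RPKM was lower in deeper libraries, and zfCTT (20.1 and 34.8 M reads) was shallower than dCTT (55.7 and 171 M). The part of depth in this was not tested. Tap1 was higher by 2.83 ± 0.46 (adjusted p = 0.0519), Nlrc5 by 1.06 ± 0.20 (0.0783), Tapbp by 1.69 ± 0.34 (0.0883) and H2-Q4 by 1.66 ± 0.34 (0.0930). By limma 0 of 10 passed (1.08% of tested genes), 1 by voom (Tap1; 1.17% of tested genes), and 8 of 10 had an unadjusted p under 0.05 (12.7% of tested genes). The median was 1.41 beside -0.02 for all tested genes, and 1.24 for the 9 genes other than B2m.

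By group means, 9 genes stood in the order no_transgene, dCTT, mSTING, zfCTT. The first pair overlapped for all of these but Tap2, the second pair was apart for all but Tap2, and the third pair was apart for H2-Q4, Tap1, Tap2, Tapbp and Nlrc5. B2m stood in the order mSTING, dCTT, no_transgene, zfCTT with no neighbours apart. Across the 8 libraries, the 36 pairs among the 9 genes without B2m had a Pearson r of 0.81 to 0.996 (median 0.94). B2m had r of -0.05 to 0.48 with these 9. The libraries fall into 4 groups and differ in depth, so these are descriptions with n = 8. Of 9070 other genes, those most like the mean profile of the 10 were Ube2l6, Mvp, Daxx, Themis2, Ckb and Nfkbie, with r from 0.990 to 0.993. Ube2l6, the ISG15 conjugating enzyme, read 2.95 and 5.58 RPKM in no_transgene, 3.28 and 4.30 in dCTT, 19.4 and 7.88 in mSTING and 43.2 and 24.3 in zfCTT. Nlrc5 alone was most like Myo1e, Coro2a and Fbxw17, with r of 0.993 to 0.994.

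The genes that act before and after the transporter were less uniform. The immunoproteasome is the proteasome form tuned to class I peptides. Of the 6 genes listed for its subunits and for proteasome activators, 0 passed by limma in any comparison. In zfCTT versus no_transgene 3 of 6 had an unadjusted p under 0.05 (13.4% of tested genes), and their median was 0.64 with 4 of 6 higher without overlap (18.8% of tested genes). Psmb9 read 5.45 and 5.51 RPKM in no_transgene, 5.89 and 5.56 in dCTT, 16.4 and 6.51 in mSTING and 25.4 and 15.8 in zfCTT, a difference of 1.70 ± 0.40 for zfCTT over no_transgene (adjusted p = 0.128). Psmb10 differed by 1.08, Psmb8 by 0.76 and Psme2 by 0.51 in that comparison. The 3 constitutive subunits that Psmb8, Psmb9 and Psmb10 replace had a median of -0.06, and 0 of 3 had an unadjusted p under 0.05 (13.4% of tested genes). That median is the value of Psmb7 (-0.06 ± 0.97), while Psmb6 stood at 0.32 and Psmb5 at -0.25. Psmb7 read 49.1 and 8.25 RPKM in no_transgene and 25.2 and 6.46 in dCTT, a split between replicates like that of B2m.

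Trimming and loading genes of the endoplasmic reticulum and cytosol were close to their no_transgene level by their median, which was 0.15 in zfCTT versus no_transgene. By limma 0 of 11 passed in that comparison (1.08% of tested genes) and 1 had an unadjusted p under 0.05 (13.4% of tested genes). Tapbpl, the tapasin-like editor of peptide loading, had the largest difference of these (1.21 ± 0.32, adjusted p = 0.164), followed by Hspa5 at 0.57, Lnpep at 0.38 and Pdia3 at -0.23; the chaperone Calr was at 0.06 and Canx at 0.00.

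Of 26 other class I and class I-like heavy chains listed, 23 were in the table and 16 were tested. In zfCTT versus no_transgene 13 of the 16 had both libraries above (18.8% of tested genes) and the median was 1.21. An unadjusted p under 0.05 in either direction was found for 11 (13.4% of tested genes), of which 1, Fcgrt, was lower. H2-M2 and H2-T24, which are among the 13 and among the 11, were under 1 RPKM in all no_transgene and dCTT libraries. They thus passed the filter only through groups where they were high. H2-M2 read 0 and 0.00637 RPKM in no_transgene and 1.64 and 1.19 in zfCTT. It entered the test through its zfCTT libraries alone and so had to differ, and its adjusted p of 0.0329, the 1 value under 0.05 among the 16 (1.08% of tested genes), is not read as a call. H2-T24 differed by 2.27 ± 0.59, H2-Q2 by 1.90 ± 0.35 (adjusted p = 0.0638), H2-Q6 by 1.65 ± 0.53 and H2-Q5 by 1.60 ± 0.37. Fcgrt, the neonatal Fc receptor, whose chain also pairs with B2m, lay the other way at -0.92 ± 0.34. Much of this group shares sequence with the heavy chains above, for example 36.4% of the 50-base windows of H2-Q5.

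Among 15 genes for transcription factors that act on class I promoters, 14 were tested. In zfCTT versus no_transgene 2 had an adjusted p under 0.05, both higher (1.08% of tested genes in either direction). Irf1 differed by 4.23 ± 0.46 (adjusted p = 0.0203) and Irf9 by 2.06 ± 0.21 (0.0196). Against dCTT both were higher too, with adjusted p of 0.0216 and 0.0201. Irf9 read 0.971 and 0.983 RPKM in no_transgene, 1.16 and 0.963 in dCTT, 8.12 and 5.13 in mSTING and 6.99 and 7.54 in zfCTT. It thus reached the filter only through mSTING and zfCTT, where it was high, so its adjusted p is not read as a call. Its mSTING difference from no_transgene was 1.92 ± 0.21, and zfCTT overlapped mSTING (0.14 ± 0.21). Irf1, which binds interferon response letters in class I promoters, read 4.05 and 3.67 RPKM in no_transgene, 4.6 and 4.02 in dCTT, 24.6 and 8.21 in mSTING and 109 and 74.3 in zfCTT. Neither gene kept an adjusted p under 0.05 in these 2 comparisons when any 1 library of no_transgene, dCTT or zfCTT was left out. Both kept it without either mSTING library. Irf1 and Irf9 each overlap another annotated gene (Gm17334 and Rnf31), so part of their reads cannot be assigned. Stat2 (1.97 ± 0.33, adjusted p = 0.0540) did not pass and was under 1 RPKM in all no_transgene and dCTT libraries, and the NF-κB genes Nfkb1 and Rela stood at 1.12 and 0.54. The RFX and NF-Y subunits that hold Nlrc5 on DNA lay between -0.19 and 0.19, apart from Rfx5 at 0.99 ± 0.35.

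**Figure D5:**
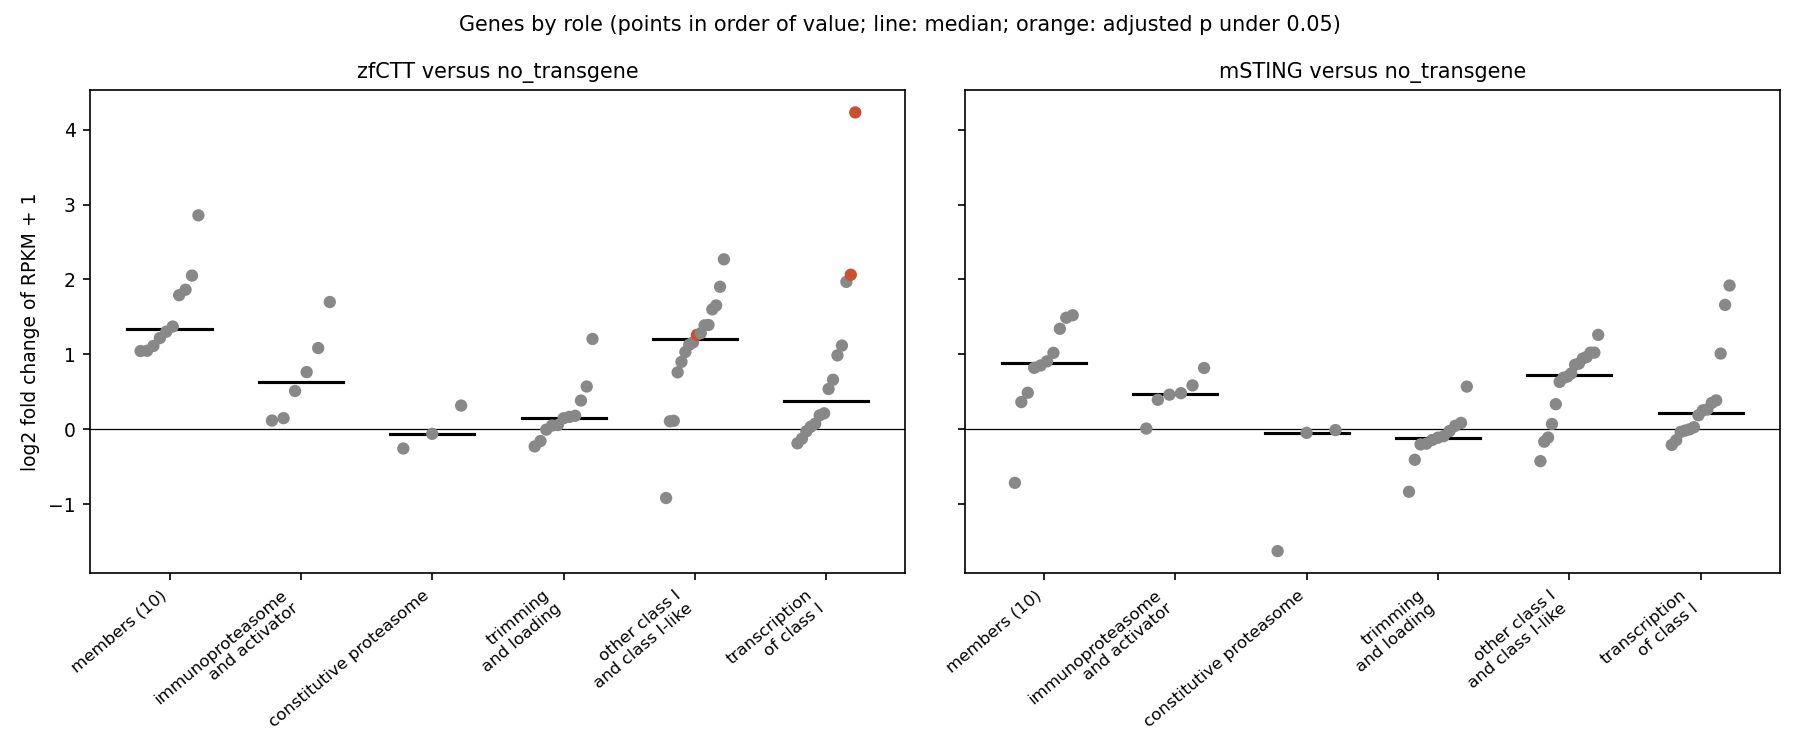
Differences in log2(RPKM + 1) of the 10 class I presentation genes and of the other genes of the pathway by role, each point a gene and each line the median of its group, for zfCTT (left) and mSTING (right) over no_transgene. The medians at left are 1.34 for the 10 genes, 0.64 for the immunoproteasome, 0.15 for trimming and loading and 1.21 for other heavy chains. The 3 orange points had an adjusted p under 0.05, and no point did at right. Of these 3, H2-M2, the 1 among other heavy chains, entered the test only through zfCTT. Irf9, among the transcription genes, reached the filter only through mSTING and zfCTT.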

How the data were processed

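The authors deposited 1 table of RPKM, reads scaled by gene length and library size, for 53715 genes in 8 single-end poly(A) libraries, per the labels' protocols. Per the submitters' processing notes, cutadapt 1.16 and HISAT2 2.1.0 were used with GRCm38 (mm10). Not given in the sources used here are the counting tool, its annotation and the use of strand. Symbols, positions, exon lengths and GC content came from GENCODE release 21 for mouse (53620 identifiers matched) and promoters from RefSeq. RPKM times exon length was whole, to a tolerance of 0.05 reads, for 95.0% to 95.6% of the values above 0. Groups came from the transgene label and replicate numbers from the titles.

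Tests were run on log2(RPKM + 1), with limma 3.58.1 under R 4.3.3, for genes with at least 1 RPKM in at least 2 libraries. All 8 libraries entered 1 fit with 4 residual degrees of freedom and an intensity trend. Each of 6 contrasts had a two-sided test with Benjamini-Hochberg adjustment at 0.05. Such fold changes understate those of low genes. A gene that reaches the filter only in zfCTT is still tested. The script was tested on simulated data. The 10 genes and the gene lists were chosen with earlier results of these data known. One gene of the transcription factor list is not reported here and is left out of that list's counts. All 10 genes were reported; of each pathway group, genes past the threshold or otherwise the 4 largest differences in zfCTT versus no_transgene were named, and any other gene of these groups (Calr, Canx, Fcgrt, Nfkb1, Rela, Rfx5) was chosen after its values were seen. The other settings tried are in the closing section.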

Additional observations from a re-analysis of the deposited data

How the results depend on the processing

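Of 1194 values for the 10 genes under the other settings, 1143 kept their direction and their side of the threshold, 27 moved past it and 24 changed direction. No value could move below it, since none of the 10 genes had passed, so those that kept their side stayed short of it. None of the 10 genes passed in zfCTT versus no_transgene, but 1 (Tap1) did with pseudocounts of 0.1 or 0.5 and with median-of-ratios scaling (0.957% to 1.13% of all genes tested), and 4 (Tapbp, H2-Q4, Tap1 and Nlrc5) among protein-coding genes only, where fewer genes are tested and 3.75% passed, against 1.08% before. Leaving out 1 library gave 0 to 2, with Tapbp and Tap1 passing without either mSTING replicate (1.07% of genes). The adjusted p of Tap1 in that comparison ran from 0.0114 to 0.417. In zfCTT versus dCTT, 1 gene (Tap1) passed with pseudocounts of 0.1 or 0.5, with only the 2 groups compared and with voom (0.503% to 1.17% of genes), 4 among protein-coding genes only (3.68%), and 0 to 2 when 1 library was left out. The cause was not tested where no reason is given. The medians over the 10 genes ran from 1.02 to 1.74 (zfCTT versus no_transgene) and from 1.07 to 1.68 (zfCTT versus dCTT) with 1 library left out. Leaving B2m out was chosen after seeing the data. The median of the other 9 genes was then 1.37 for zfCTT versus no_transgene, 0.91 for mSTING versus no_transgene and 0.17 for dCTT versus no_transgene. It was 0.71 for zfCTT versus mSTING, -0.78 for dCTT versus mSTING and 1.24 for zfCTT versus dCTT. A mean RPKM of at least 5 leaves Nlrc5 out. With no filter on low values, Irf1 and Irf9 had an adjusted p over 0.05 against no_transgene (0.0724 and 0.0623) and against dCTT. So had Irf9 against no_transgene with only the 2 groups compared (0.0532).

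The labels give the groups shared replicate numbers without saying that they mark pairs. Across 13475 genes, the replicate differences of 2 groups correlated at 0.264 to 0.762 in 4 of 6 pairs of groups, but at 0.0364 and 0.0318 between mSTING and no_transgene or dCTT, so the numbers were not taken to pair the libraries. With the replicate number as a block, 3 genes (Tapbp, H2-Q4 and Tap1) passed in zfCTT versus no_transgene, where calls over all genes went from 146 to 432 of 13475 (3.21%), and 1 (Tap1) in zfCTT versus dCTT (409, or 3.04%).

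Directions that changed were of differences that had not passed. With 1 library left out, dCTT minus no_transgene ran from -0.029 to 0.23 for Tapbp, -0.033 to 0.077 for Tap1, -0.12 to 0.50 for H2-Q7, -0.056 to 0.32 for H2-K1, -0.16 to 0.68 for H2-T23, -0.26 to 0.61 for H2-D1, -0.10 to 0.21 for Nlrc5 and -1.44 to 0.36 for B2m. B2m also ran from -1.61 to 0.19 in mSTING versus no_transgene and from -0.72 to 1.07 in dCTT versus mSTING. In zfCTT versus mSTING, H2-Q7 ran from -0.079 to 0.98 and H2-T23 from -0.40 to 1.08, and in dCTT versus mSTING Tap2 ran from -0.56 to 0.078. The other 2 settings that turned a direction were chosen after seeing the data. With the GC trend removed, Tapbp was -0.032 and Tap1 -0.076 in dCTT versus no_transgene. Without replicate 1 of both no_transgene and dCTT, Tap1 was -0.00056 and Nlrc5 -0.061 there, and B2m was 0.19 in mSTING versus no_transgene and -0.72 in dCTT versus mSTING. Where 1 library of a group is left, it is assumed to vary like the others. Depth was lowest for Nlrc5, at 176 reads in the library where it had fewest.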
